A study of Mus musculus with 6 samples.

Results

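Genes for the targeting subunits of SWI/SNF, a chromatin remodeler, were examined in hind limb skeletal muscle that had lost Baf155. They were 10 genes, picked by symbol as the subunits that give the complex its BAF, PBAF or non-canonical BAF (ncBAF) identity, and all 10 were among the 20632 genes of the deposited table. RNA came from whole hind limb muscles of unexercised male mice aged 3 months on a C57BL/6 background, with 1 library per mouse. The control mice carried the floxed *Baf155* allele on both chromosomes without Cre and are called Baf155 WT here (n = 3), and the mutant mice carried the same alleles with an *MCK*-Cre transgene and are called Baf155 ΔMF (n = 3). In the labels these groups read wild type and Baf155 -/-. The muscle creatine kinase (MCK) promoter drives Cre in myofibers of skeletal muscle and in heart muscle, so the other cells of a whole muscle kept *Baf155*. A lower level in a whole muscle cannot be told apart from fewer cells that express the gene.

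SWI/SNF complexes use ATP to slide or evict nucleosomes, and 3 forms share a common core with Baf155 in it. The targeting subunits decide which form is built and where it binds. Arid1a or Arid1b, which bind DNA and exclude each other, define BAF together with the histone readers Dpf2 or Dpf3. Arid2, the multiple-bromodomain protein Pbrm1, Brd7 and Phf10 define PBAF. The bromodomain protein Brd9 defines ncBAF, and Ss18 is found in BAF and ncBAF. In heart and skeletal muscle, Dpf3 is known as a tissue-enriched member of this group.

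Total counts ranged from 8426022 to 12469335 per mouse, and 3 counts corresponded to 0.229 to 0.351 CPM (TMM-normalized counts scaled to a common library total), which covers counting error only. Each sample title opens with a code (MS13, MS14 or MS15) whose meaning the labels leave unexplained, called the title prefix here. The MS13 mice were 1 Baf155 WT and 2 Baf155 ΔMF mice, MS15 stood on the other 2 Baf155 WT mice, and MS14 on the remaining Baf155 ΔMF mouse. On the first principal component (43.3% of the variance) the MS15 mice lay at 25.0 and 22.5, and the other mice lay between -17.1 and -1.56. The 12 myofiber markers summed to 190600 to 228600 CPM in Baf155 WT and 203700 to 231600 CPM in Baf155 ΔMF mice. *Smarcc1*, which encodes Baf155, had 23.4, 19.5 and 17.0 CPM in the Baf155 WT mice and 7.05, 6.54 and 7.72 CPM in the Baf155 ΔMF mice. It fell by 1.49 on the log2 scale (standard error 0.15, adjusted p = 0.00907 from edgeR), and a value of -1.79 was obtained when only MS13 mice were compared. Exons of *Smarcc1* overlap *Dhx30* on the opposite strand.

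Every value below is in the order Baf155 WT mice 1 to 3 (MS13, MS15, MS15) and then Baf155 ΔMF mice 1 to 3 (MS13, MS13, MS14), where the numbers only name the mice. Fold changes are Baf155 ΔMF against Baf155 WT on the log2 scale. They come from edgeR's quasi-likelihood test over 12116 genes, and the adjusted p is that of Benjamini and Hochberg across these genes.

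Several targeting subunits are paralogs, so the sequences that their transcripts share were examined first. The longest identical stretches between the coding sequences of the principal transcripts (GENCODE M21, GRCm38) are shown because a read lying wholly within one could not be assigned to 1 gene.
Arid1a and Arid1b: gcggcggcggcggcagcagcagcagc
Brd7 and Brd9: aagcacaagaagcacaag
Dpf2 and Dpf3: aactactgtgacttctgc
The stretch of *Arid1a* and *Arid1b* holds 26 bases of a short repeat, and those of the other pairs hold 18 bases each. The principal transcript of *Ss18* shared 9.53% of its 50-base words with the processed pseudogene *Gm1826*, that of *Arid1a* shared 1.02% with the processed pseudogene *Gm8134*, and that of *Arid2* shared 0.508% with the miRNA gene *Gm25397* inside it. The principal transcripts of the other 7 members shared none. Words were compared in the same orientation only, so overlap with genes on the opposite strand was not covered. The estimated counts were whole numbers in all mice for every member except *Phf10*, whose counts had a fractional part in 6 of 6 mice.

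To compare levels between genes, CPM was divided by the length of the principal transcript in kilobases. *Phf10*, a PHD finger subunit of PBAF, was highest, with 16.7 to 20.5 CPM per kb over the 6 mice. *Dpf2*, the BAF reader of acetylated histones, followed with 11.0 to 12.8 CPM per kb. *Brd7* and *Pbrm1*, both of PBAF, had 8.10 to 12.3 and 8.85 to 13.1 CPM per kb. Neither step between these last 3 genes exceeded the spread over mice, while *Phf10* lay above all of them in 6 of 6 mice. The remaining 6 members lay lower, from *Arid1b* at 4.43 to 6.19 CPM per kb to *Dpf3* at 3.13 to 4.46 CPM per kb, and *Pbrm1* exceeded *Arid1b* in 6 of 6 mice. In between, in order of the median, were *Ss18* (5.45 CPM per kb), *Brd9* (5.07), *Arid1a* (4.84) and *Arid2* (4.02), and the ranges of all neighbours in this lower group overlapped. *Arid1a* nevertheless lay above *Arid2* in 6 of 6 mice. The order depends on the length used. With the union of all exons, *Pbrm1* came first with a median of 9.98 CPM per kb and *Phf10* came after *Brd7* and *Dpf2* with 6.09 CPM per kb, and *Brd9* was last with 1.77 CPM per kb.

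**Figure D1:**
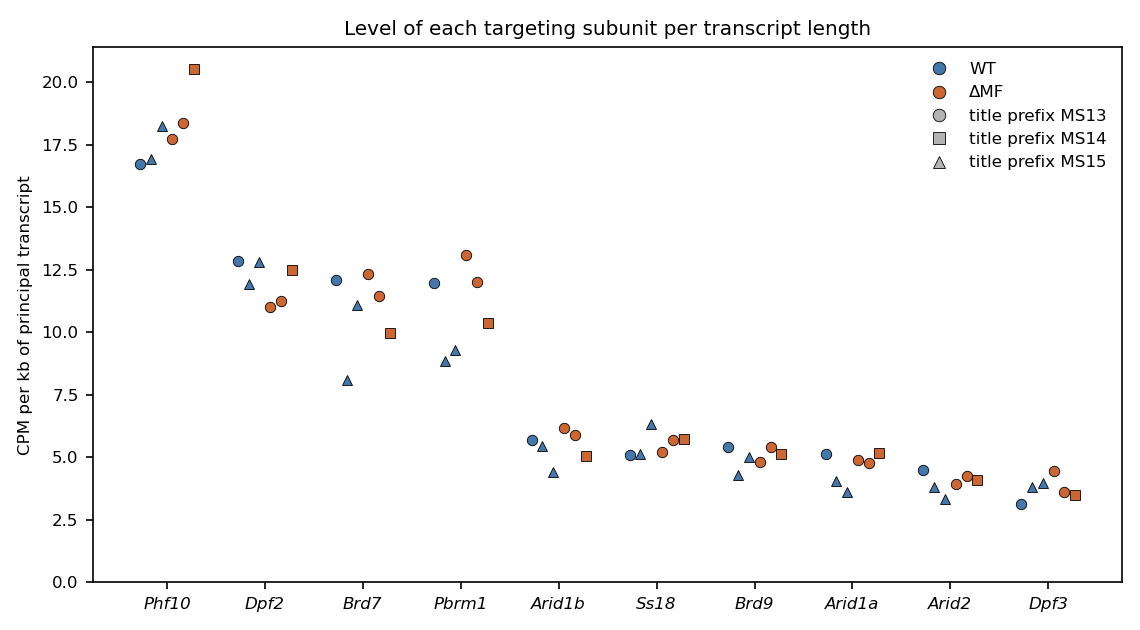
CPM per kilobase of the principal transcript (vertical axis, linear) for the 10 members, ordered by their median. Each symbol is 1 mouse, with the color for the genotype and the shape for the title prefix, and *Phf10* stands above the other members while 6 members lie between 3.13 and 6.34 CPM per kb.

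No member passed the test between the genotypes. At an adjusted p under 0.05 edgeR called 0 of 10 members, as did DESeq2 and limma-voom, where 0.0248% of all genes tested were called by edgeR. At an unadjusted p under 0.05, 0 of 10 members passed, against 7.95% of all genes. With stricter limits on both p (under 0.01, unadjusted) and linear fold (below 0.7 or above 1.4), 0 of 10 members passed, against 1.11% of all genes. The 3 Baf155 WT and the 3 Baf155 ΔMF mice overlapped in each of the 10 members, whereas they did not overlap in 10.8% of all genes. The fold changes of the members lay between -0.11 and 0.24 (median 0.10). The 95% interval of the fold change stayed within 1.4-fold in both directions (0.49 on the log2 scale) for 8 of 10 members, compared with 57.2% of all genes, the exceptions being *Arid1a* and *Pbrm1*. These intervals come from the fit without the title prefix. With the prefix as a covariate, 9 of 10 members stayed within 1.4-fold (48.6% of all genes), and the interval of *Dpf3* ran from -0.04 to 0.77. Neither share of all genes was matched for expression level, and both include genes with lower CPM than any member.

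**Figure D2:**
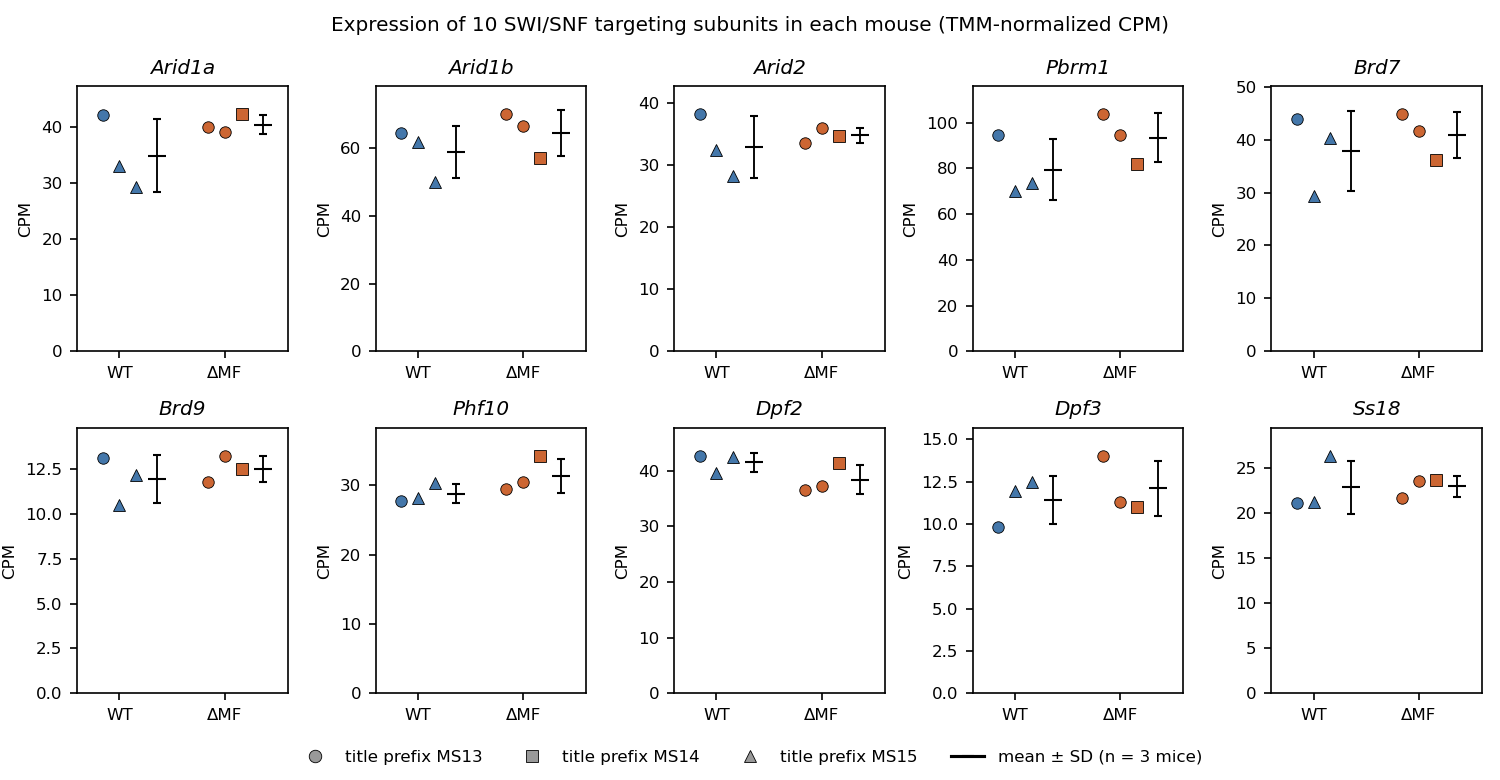
TMM-normalized CPM of each member (vertical axes from 0, 1 scale per panel) in the 3 Baf155 WT and 3 Baf155 ΔMF mice, with the shape for the title prefix and the mean ± SD beside the points. The genotypes overlap in every panel, and in *Arid1a*, *Arid2* and *Pbrm1* both MS15 mice (triangles) lie below the other 4 mice.

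Among the BAF subunits, *Arid1a* (chromosome 4 from 133679008 to 133756769, minus strand) had 42.2, 33.2, 29.4, 40.0, 39.1 and 42.3 CPM. The 3 Baf155 ΔMF mice lay within 39.1 to 42.3 CPM, and the MS13 Baf155 WT mouse lay among them while both MS15 mice were lower. Its means were 34.9 ± 6.54 and 40.5 ± 1.64 CPM (SD, n = 3 each), and its fold change was 0.22 (standard error 0.13, adjusted p = 0.655). *Arid1b* (chromosome 17 from 4994332 to 5347656, plus strand), the other large DNA-binding subunit, had 64.6, 61.8, 50.2, 70.0, 66.7 and 57.1 CPM. Its fold change was 0.13 (standard error 0.12, adjusted p = 0.741), and the lowest mouse was again an MS15 mouse.

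*Dpf2* (chromosome 19 from 5896516 to 5913010, minus strand) was the only member with a lower mean in Baf155 ΔMF muscle. It had 42.6, 39.6, 42.4, 36.5, 37.3 and 41.4 CPM, a fold change of -0.11 (standard error 0.09, adjusted p = 0.728). Of the Baf155 ΔMF mice, both MS13 mice lay below all Baf155 WT mice and the MS14 mouse lay among them. *Dpf3* (chromosome 12 from 83213745 to 83487716, minus strand) had 9.81, 11.9, 12.5, 14.0, 11.3 and 11.0 CPM. Its fold change was 0.08 (standard error 0.14, adjusted p = 0.881), and both the lowest and the highest mouse carried MS13. *Ss18* (chromosome 18 from 14624198 to 14682914, minus strand), which joins BAF and ncBAF, had 21.2, 21.3, 26.3, 21.7, 23.6 and 23.7 CPM. Its means of 22.9 ± 2.94 and 23.0 ± 1.15 CPM were the closest of all members, with a fold change of 0.0045 (interval from -0.25 to 0.26, adjusted p = 0.991).

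Among the PBAF subunits, *Pbrm1* (chromosome 14 from 31019138 to 31121592, plus strand), which reads acetylated histone tails, had the smallest p of the 10 members. It had 94.5, 70.0, 73.5, 103.6, 94.8 and 82.1 CPM, with means of 79.4 ± 13.3 and 93.5 ± 10.8 CPM. Both MS15 mice were below all others, and the MS13 Baf155 WT mouse lay above the MS14 Baf155 ΔMF mouse. This gave a fold change of 0.24 ± 0.13 (standard error), with an adjusted p = 0.633 in edgeR. Over the 6 mice, the genes whose log2 CPM followed *Pbrm1* most closely were *Akap9*, *Ankrd11* and *Sugp2* (Pearson's r of 0.997, 0.996 and 0.994), as a description of 6 libraries that share the first principal component.

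*Arid2* (chromosome 15 from 96287518 to 96404992, plus strand), the ARID subunit of PBAF, had 38.2, 32.4, 28.3, 33.6, 36.0 and 34.7 CPM and a fold change of 0.08 (standard error 0.12, adjusted p = 0.852). *Brd7* (chromosome 8 from 88331039 to 88362194, minus strand) had 43.8, 29.4, 40.2, 44.7, 41.5 and 36.1 CPM and a fold change of 0.11 (standard error 0.15, adjusted p = 0.826). Each of them had its lowest value in an MS15 mouse, and in *Arid2* the highest value was that of the MS13 Baf155 WT mouse. *Brd9* (chromosome 13 from 73937811 to 73960895, plus strand), the subunit of ncBAF, had 13.1, 10.5, 12.1, 11.7, 13.2 and 12.5 CPM and a fold change of 0.07 (standard error 0.13, adjusted p = 0.881).

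*Phf10* (chromosome 17 from 14945009 to 14961273, minus strand) had 27.8, 28.2, 30.3, 29.5, 30.5 and 34.1 CPM. The highest value was that of the MS14 mouse, and the other 5 mice overlapped. Its fold change was 0.12 (standard error 0.10, adjusted p = 0.719). Exons of *Phf10* overlap exons of *1600012H06Rik* on the opposite strand. The estimated counts of *1600012H06Rik* were also fractional (144.7, 187.14, 164.1, 154.55, 154.45 and 108.85), and added to those of *Phf10* they gave whole numbers in 6 of 6 mice (431, 555, 504, 431, 448 and 401, within 1e-06). The library kit marks strand, and how the counting used strand is not given in the sources used here, so the division of these reads between both genes is uncertain. Taken as 1 unit, a choice made after the values were seen, both genes had 41.9, 42.5, 45.0, 46.0, 46.5 and 46.9 CPM. The genotypes no longer overlapped, as was the case in 10.8% of all genes. The fold change of the sum was 0.11 (standard error 0.09, adjusted p = 0.714 from edgeR). Exons of *Pbrm1* overlap *Gnl3* on the opposite strand and those of *Dpf2* overlap *Gm42067*, and the counts of *Pbrm1* and *Dpf2* were whole.

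**Figure D3:**
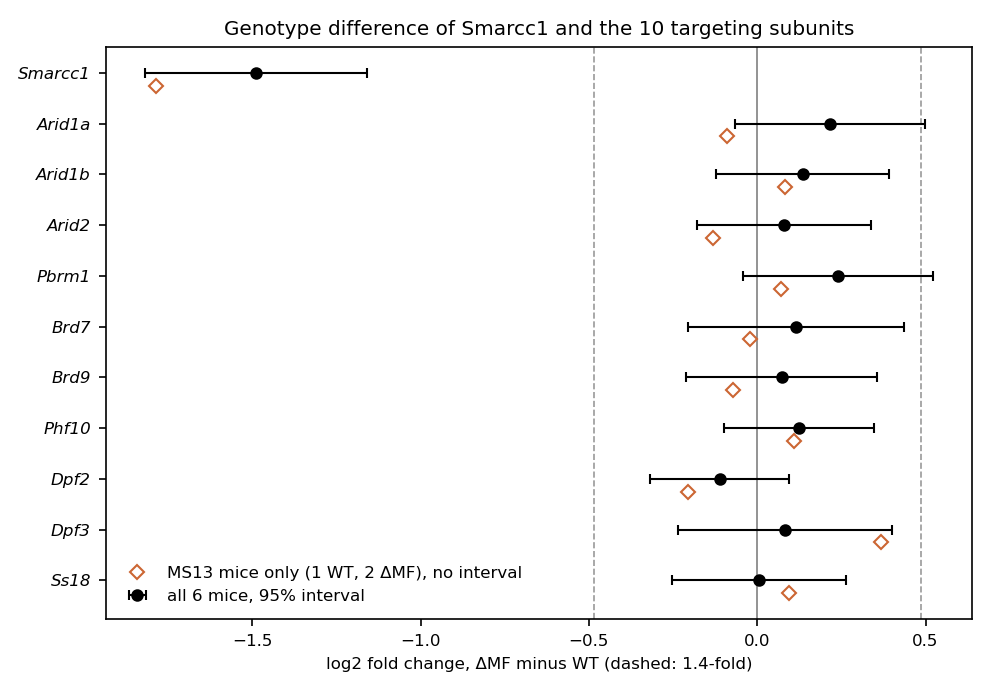
Log2 fold change (horizontal axis, Baf155 ΔMF minus Baf155 WT) of *Smarcc1* and the 10 members with 95% intervals (filled circles, 6 mice) and the value between the MS13 mice alone (open diamonds, no interval). All 10 intervals of members include 0 and that of *Smarcc1* does not, and the diamonds of *Arid1a*, *Arid2*, *Brd7* and *Brd9* lie on the other side of 0 from the circles.

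The fold change was above 0 for 9 of 10 members, compared with 49.8% of all genes tested, and this count moved with the title prefix. Between the MS13 mice alone, it was above 0 for 5 of 10 members (median 0.02), compared with 50.8% of all genes. There it was -0.09 for *Arid1a*, -0.13 for *Arid2*, -0.02 for *Brd7* and -0.07 for *Brd9*. In the edgeR fit with the prefix as a covariate, which draws this contrast from the same mice, the values were within 0.01 of these and the adjusted p was 0.979 or higher for all 10 members. Among the MS13 mice the fold change was 0.07 for *Pbrm1*, 0.08 for *Arid1b*, 0.09 for *Ss18*, 0.11 for *Phf10*, 0.37 for *Dpf3* and -0.21 for *Dpf2*. Among the Baf155 WT mice, 7 of 10 members were lower in the mean of the MS15 mice than in the MS13 mouse, compared with 48.2% of all genes. This difference was -0.43 for *Arid1a*, -0.40 for *Pbrm1*, -0.33 for *Brd7* and -0.33 for *Arid2* on the log2 scale, and it was 0.32 for *Dpf3*. Without the MS13 Baf155 WT mouse, *Arid1a* and *Pbrm1* were called higher in Baf155 ΔMF muscle, with fold changes of 0.37 and 0.38 (adjusted p = 0.0412 and 0.0346 from edgeR). In that fit 955 of 12288 genes were called, and genotype cannot be told apart from prefix because no prefix is left in both genotypes.

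Values for long transcripts and for markers of some other cell types also differed in the MS15 mice. *Arid1a*, *Arid1b*, *Arid2* and *Pbrm1* have principal transcripts of 8187, 11325, 8507 and 7907 bases, and the other members have 1663 to 4153 bases. Of all genes with a principal transcript over 5000 bases (n = 2639), 70.6% were lower in the MS15 mice than in the MS13 Baf155 WT mouse and 71.2% had a fold change above 0, compared with 41.8% and 43.9% of the other genes. Between the MS13 mice alone the shares above 0 were 51.8% and 50.6%. The 5 macrophage markers summed to 190.5 and 156.4 CPM in the MS15 mice and to 57.1 to 98.2 CPM in the other 4 mice. Between the genotypes, 5 of 5 had an unadjusted p under 0.05 in edgeR, compared with 7.95% of all genes. The MS13 Baf155 WT mouse (60.6 CPM) lay among the Baf155 ΔMF mice, and the prefix itself was not tested for these markers. The 5 endothelial markers summed to 200.8 and 208.7 CPM in the MS15 mice. They summed to 255.4 CPM in the MS13 Baf155 WT mouse and 258.4 to 284.6 CPM in the Baf155 ΔMF mice. *Pecam1*, *Cdh5* and *Kdr* were lower in both MS15 mice than in all other mice. In *Tek* the MS15 mice overlapped the others, and *Cldn5* was lowest in the MS13 Baf155 WT mouse. Between the genotypes, 2 of 5 had an unadjusted p under 0.05 in edgeR (7.95% of all genes). Adipocyte markers summed to 75.9 and 67.4 CPM in the MS15 mice and 32.5 to 48.3 CPM in the others. *Adipoq*, *Plin1*, *Cidec* and *Cfd* were higher in both MS15 mice than in all other mice, and in *Lep* the MS15 mice overlapped the others. The MS15 mice also overlapped the others in the sums of satellite cell, Schwann cell, erythroid, and fibro-adipogenic and matrix markers. Lymphocyte markers summed to 19.8 and 17.4 CPM against 7.39 to 8.97 CPM. Nearly all of this was *Ptprc* (19.2 and 17.13 CPM against 7.093 to 8.435 CPM), and *Cd3e*, *Cd3d* and *Cd79a* had at most 0.468 CPM in any mouse. Smooth muscle and pericyte markers summed to 585.5 and 627.9 CPM against 715.4 to 855.5 CPM. Most of this was *Rgs5* (459.5 and 509.4 CPM against 574.3 to 741.2 CPM), and in *Myh11*, *Acta2* and *Cspg4* the MS15 mice overlapped the others. The myofiber sum was also lowest in the MS15 mice (199300 and 190600 CPM), but its markers went both ways. *Ttn* had 47540 and 37560 CPM in the MS15 mice against 62960 to 85260 CPM in the others. *Mb*, *Myh1* and *Myh2* were also lower in both MS15 mice than in all other mice. In contrast, *Acta1*, *Ckm*, *Tnnt3* and *Mylpf* were higher in both MS15 mice than in all other mice. No marker of these lists was at 0 in all mice. The part of transcript length and of these cells in the values of the members was not tested.

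Because members of a pair take the same place in the complex or mark different forms of it, 4 ratios were compared within each mouse, where the library size cancels. CPM was not divided by transcript length here, so the ratios compare mice rather than the levels of both genes. They are ratios of RNA, and that of *Arid2* to *Arid1a* leaves out *Arid1b*. CPM of *Arid1b* was 1.53, 1.86, 1.70, 1.75, 1.70 and 1.35 times that of *Arid1a*, and the genotypes overlapped. The ratio of *Arid2* to *Arid1a*, a PBAF and a BAF subunit, was 0.906, 0.977, 0.961, 0.840, 0.920 and 0.820. Of the Baf155 ΔMF mice, 2 were below all Baf155 WT mice, and the mean log2 ratio was -0.08 ± 0.06 in Baf155 WT and -0.22 ± 0.09 in Baf155 ΔMF mice (difference -0.14, two-sided exact permutation test, p = 0.2). The ratio of *Brd9* to *Brd7*, an ncBAF and a PBAF subunit, was 0.299, 0.357, 0.302, 0.263, 0.318 and 0.346, and the genotypes overlapped. The ratio of *Dpf3* to *Dpf2* was 0.231, 0.302, 0.295, 0.383, 0.304 and 0.266, and the lowest mouse was Baf155 WT and the highest Baf155 ΔMF, both with MS13. The exact permutation p-values were 0.6 for *Arid1b* over *Arid1a*, 0.9 for *Brd9* over *Brd7* and 0.4 for *Dpf3* over *Dpf2*, where 3 mice against 3 cannot give a p below 0.1. Adjusted over the 4 ratios, the exact permutation p-values were 0.8 for 3 ratios and 0.9 for *Brd9* over *Brd7*, and no ratio passed the test. Between the MS13 mice alone the log2 ratio differed by -0.04 for *Arid2* over *Arid1a* and by -0.05 for *Brd9* over *Brd7*. It differed by 0.17 for *Arid1b* over *Arid1a* (-0.09 with all mice) and by 0.56 for *Dpf3* over *Dpf2* (0.20 with all mice).

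**Figure D4:**
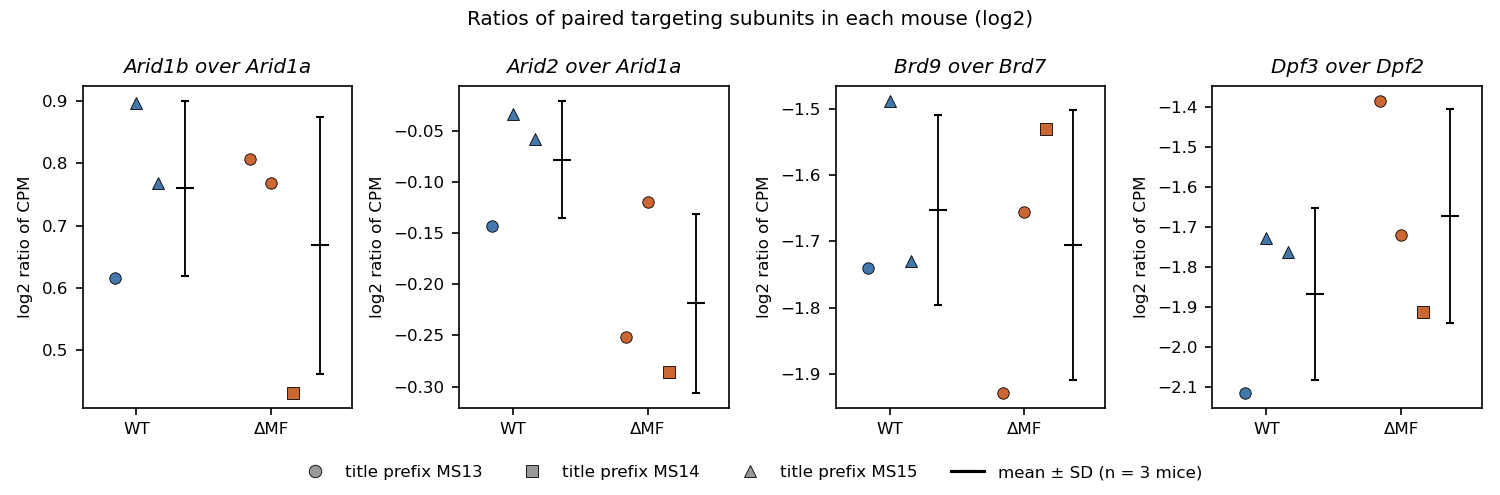
Log2 ratio of CPM (vertical axes, 1 scale per panel) of 4 pairs of targeting subunits in each mouse, with the shape for the title prefix and the mean ± SD beside the points. The genotypes overlap in all 4 panels, and the ratio of *Arid2* to *Arid1a* has the lowest p, 0.2.

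The other SWI/SNF genes were examined in the same fit. Of 20 genes, 17 had enough counts, and *Actl6b*, *Bcl11a* and *Bcl11b* had at most 6 counts in any mouse. Apart from *Smarcc1*, 0 of 16 genes had an adjusted p under 0.05 in edgeR. An unadjusted p under 0.05 was found for 1 of 16, compared with 7.95% of all genes. This gene was *Smarca2*, which encodes the ATPase Brm, with 55.2, 55.4, 56.2, 71.1, 64.6 and 59.8 CPM and a fold change of 0.23 (adjusted p = 0.601). *Smarca2* was also the 1 of 16 genes whose genotypes did not overlap, compared with 10.8% of all genes. Its fold change between the MS13 mice alone was 0.30. The alternative ATPase Brg1, from *Smarca4*, had a fold change of 0.13, and *Smarcc2*, the paralog of *Smarcc1*, had a fold change of 0.08 (adjusted p = 0.706 and 0.796). *Gltscr1* and *Gltscr1l*, which partner with Brd9 in ncBAF, had fold changes of 0.40 and 0.27 (adjusted p = 0.688 and 0.660), and between the MS13 mice alone -0.27 and 0.02. The lowest fold changes of the 16 genes were -0.70 for *Dpf1*, a paralog of *Dpf2* and *Dpf3*, and -0.31 for *Smarcb1*, a core subunit (adjusted p = 0.627 and 0.622), and between the MS13 mice alone -0.30 and -0.16. The median fold change of the 16 genes was 0.08, beside 0.10 for the targeting subunits and 0.00 for all genes.

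Genes that share the ARID or bromodomain fold but belong to other complexes were examined as well. Of 17 such genes, 0 had an adjusted p under 0.05 in edgeR, and the fold change was above 0 for 14 (median 0.12), compared with 49.8% of all genes. Between the MS13 mice alone it was above 0 for 11 of 17 (median 0.06). The genotypes did not overlap in 4 of 17 (*Arid4a*, *Kdm5a*, *Kdm5c* and *Brd3*, all higher in Baf155 ΔMF mice), compared with 10.8% of all genes. In 2 of 17 the unadjusted p was under 0.05, compared with 7.95% of all genes. They were *Jarid2*, a partner of Polycomb repressive complex 2, with a fold change of 0.38 (adjusted p = 0.601), and *Brd3*, with a fold change of 0.24 (adjusted p = 0.622). Between the MS13 mice alone *Jarid2* and *Brd3* had 0.06 and 0.17.

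The promoters of *Pbrm1* and *Arid1a*, the members with the lowest p-values, are shown because these transcripts were lowest in the same mice. They hold the 250 bases before the start in the RefSeq table (GRCm38.p6, 5′ to 3′ on the strand of the gene), at chr14:31018888-31019137 (plus) and chr4:133756770-133757019 (minus). Matches to the hypoxia response core ACGTG, on either strand, are in capitals.
Pbrm1: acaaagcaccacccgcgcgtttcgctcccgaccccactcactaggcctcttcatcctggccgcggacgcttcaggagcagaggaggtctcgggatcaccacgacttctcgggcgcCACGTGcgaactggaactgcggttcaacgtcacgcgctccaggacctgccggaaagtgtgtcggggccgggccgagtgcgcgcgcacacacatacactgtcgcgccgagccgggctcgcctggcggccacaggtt
Arid1a: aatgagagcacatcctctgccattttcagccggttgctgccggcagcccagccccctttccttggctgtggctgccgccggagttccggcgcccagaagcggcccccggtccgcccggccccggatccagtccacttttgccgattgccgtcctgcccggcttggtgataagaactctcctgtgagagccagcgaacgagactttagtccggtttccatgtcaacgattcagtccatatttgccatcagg
The *Pbrm1* window holds the core on both strands in 1 palindrome, and the *Arid1a* window holds none, where 16.6% of 32851 promoter windows of this length hold at least 1 match. The STAT motif TTCNNNGAA was found in neither window, and 7.02% of all windows hold it. The windows hold 31 and 18 CpG dinucleotides, compared with a median of 6. The table held 8 of the 10 members and lacked *Arid2* and *Ss18*. It also gave another start for *Arid1a*, whose window held 33 CpG dinucleotides and neither motif. Of the windows not shown, only that of *Phf10* held a match to ACGTG. A match describes the letters only, and no binding was measured in these libraries.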

How the data were processed

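Total RNA libraries (TruSeq Stranded Total RNA LT, Illumina HiSeq) were made from 3 Baf155 WT and 3 Baf155 ΔMF mice, and the genotype label set the groups. The authors deposited expected counts, which are RSEM-type estimates of reads per gene symbol without normalization. The submitters' processing notes name CASAVA 1.8.2, cutadapt 1.10, Bowtie2 2.2.7, TopHat2 2.1.1, RSEM 1.2.30, limma and the build mm10 (GRCm38), and the annotation is not given in the sources used here. Each library is taken as 1 mouse, and p-values set the genotype difference against the spread between these libraries.

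Counts were rounded and analysed with edgeR 4.0.16 in R 4.3.3 (filterByExpr with a minimum count of 10 and a minimum total of 15, TMM, quasi-likelihood F test, no covariate), which left 12116 of 20632 genes. Standard errors are the fold change divided by the square root of F. The members and lists were chosen with earlier results of these data known, and all members are named. The other SWI/SNF, ARID and bromodomain genes are named at an unadjusted p under 0.05, and *Smarca4*, *Smarcc2*, *Gltscr1*, *Gltscr1l*, *Dpf1*, *Smarcb1*, *Arid4a*, *Kdm5a* and *Kdm5c* were named after their values were seen. Single genes of the marker lists were also named after their values were seen. Ratios were compared by exact permutation over 20 assignments of mice. Positions and transcript lengths are from GENCODE M21, and the principal transcript is the longest with the highest APPRIS principal tag, or else the longest coding one. The fit was repeated with other scalings and filters, robustly, with a term for the title prefix, in DESeq2 1.42.0, in voom of limma 3.58.1, and without each mouse in turn.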

Additional observations from a re-analysis of the deposited data

How the results depend on the processing

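No paired analysis was possible because the numbers in the sample titles repeat within a genotype and tie no Baf155 WT mouse to a Baf155 ΔMF mouse. The number of members at an adjusted p under 0.05 stayed at 0 under every scaling, filter and tool tried, and leaving out 1 mouse gave 0 to 2. The 2 calls, *Arid1a* and *Pbrm1*, came only without the MS13 Baf155 WT mouse. The number of members without overlap was 1 of 10 when *Phf10* was summed with its antisense gene, compared with 10.8% of all genes. This sum was a choice made after seeing the data. The sign of the fold change turned for *Ss18* with upper-quartile scaling (-0.010) and with the library size only (-0.060). With the title prefix as a covariate it turned for *Arid1a* (-0.091), *Arid2* (-0.132), *Brd7* (-0.023) and *Brd9* (-0.073), and between the MS13 mice alone the values were -0.091, -0.133, -0.023 and -0.073. Across the fits without 1 mouse, the fold change ranged from -0.019 to 0.196 for *Arid2*, -0.038 to 0.237 for *Brd7*, -0.012 to 0.148 for *Brd9*, -0.035 to 0.149 for *Dpf3* and -0.045 to 0.115 for *Ss18*. The cause was not tested. The log2 ratio of *Arid1b* to *Arid1a* differed by -0.164 to 0.027 without 1 mouse and by 0.172 between the MS13 mice alone, against -0.092 with all mice. That of *Brd9* to *Brd7* differed by -0.140 to 0.060 without 1 mouse, and between the MS13 mice alone those of *Arid2* to *Arid1a* and of *Dpf3* to *Dpf2* differed by -0.042 and 0.565. *Smarcc1* had an adjusted p above 0.05 without Baf155 WT mouse 2 (0.0616), Baf155 ΔMF mouse 1 (0.0533) or Baf155 ΔMF mouse 2 (0.0678). *Actl6b* had 0 counts in all 6 mice and *Bcl11a* and *Bcl11b* had at most 6, so they were not tested.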
